A study of Drosophila melanogaster with 33 samples.

Results

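RNA captured as newly made from Drosophila melanogaster embryos at the syncytial blastoderm was set against that at nuclear cycles (NC) 9-10. The comparison rests on 4 libraries, the poly(A) eluates of these 2 stages, out of 33 libraries in the series and 21 in its poly(A) set. They were chosen by their labels alone, as every poly(A) eluate of either stage. Both stages came from wild-type Oregon R embryos, all of which had received an injection of 5-EU (5-ethynyl uridine). This modified uridine enters any RNA made from then on. The embryos developed further and were staged by their shape; the time between injection and collection is not given in the labels, and no uninjected embryos are among these libraries. The syncytial blastoderm eluates came from 1 preparation at 250 mM 5-EU and 1 at 50 mM. The NC 9-10 eluates came from 2 preparations at 250 mM. Biotin was attached to RNA that had taken up 5-EU, and streptavidin beads then captured it (the eluate). The unbound flow-through and the input, which is the total RNA, were sequenced beside it. The series set out to find the transcripts that the embryo's own genome makes during its first activation.

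A fly egg is loaded with maternal RNA and divides its nuclei many times in a shared cytoplasm before its own genome is widely used. A small set of short genes is transcribed in the rapid early cycles, and many more follow as the cycles lengthen and the nuclei settle under the surface of the egg, until membranes close around them. In the same period maternal transcripts are removed in waves, so total RNA holds both old and new molecules, and labelling separates them by when they were made. An eluate can also carry unlabelled RNA that sticks to the beads, and that share was not measured here. Labelled RNA below stands for the RNA of eluates, with any such share included.

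Levels are given per kilobase of transcript, in ppm, so that genes can be compared. Here ppm stands for parts per 1000000 of the library, divided by a second factor per library. That factor was 0.806 and 0.937 for the 250 mM and 50 mM syncytial eluates. For the first and second NC 9-10 eluates it was 1.09 and 1.36. A level in ppm is therefore not a share of the library. A pair of values for the syncytial stage gives the 250 mM library and then the 50 mM library, and a pair for NC 9-10 gives the first and then the second preparation. The spacing of the low values gives an estimate of depth, 19.9 M and 4.23 M reads (M, 1000000) in the syncytial eluates, against 6.19 M and 27.8 M in the NC 9-10 eluates. A single read in a gene of 1 kb was then worth 0.140 and 0.514 ppm in the syncytial eluates, against 0.389 and 0.0721 ppm at NC 9-10. These are estimates, so no counting interval is given. Differences are log2 (ppm + 1), syncytial blastoderm minus NC 9-10, with the standard error (SE) and the adjusted p of limma over 8618 genes tested (2 libraries against 2). A difference on this scale understates the change of a gene at a low level. The labels do not say that preparations were separate collections of embryos. The p-values rest on the spread between preparations, pooled over the stages and fractions of the poly(A) set. A gene listed at 0 throughout a group adds no spread there, so its adjusted p may be too small. Of the 1172 genes called higher below, 468 were listed at 0 in both NC 9-10 eluates. Fractions of 1 preparation entered as if separate, and preparations differ in dose at the syncytial stage.

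The stage labels were checked on textbook genes. The cellularisation genes slam, nullo and bnk, textbook zygotic genes, were each at 1375 ppm or more in both syncytial eluates. In both NC 9-10 eluates they were at 252 ppm or less. The transcript of slam was also in total RNA at NC 9-10, at a mean of 95.2 ppm in inputs. The maternal anterior determinant bcd was at 145 and 154 ppm in syncytial eluates, against 160 and 122 ppm in NC 9-10 eluates. The medians over all genes tested were 31.3 and 30.3 ppm, against 35.9 and 32.7 ppm. How much of the bcd level was unlabelled RNA was not tested. The maternal transcript nos differed by −1.01 and did not pass (adjusted p = 0.0536). With libraries scaled to their totals only, nos was lower (−1.50, adjusted p = 0.00439). The NC 9-10 eluates were not alike for early genes. The first lay above the second in 32 of 33 short early genes and 7 of 9 pair-rule genes, against 3575 of all 8618 genes tested. In the syncytial eluates the 250 mM library lay above the 50 mM library in 9 of 9 pair-rule genes and 15 of 15 gap, terminal and head genes, against 3778 of 8618. Dose and preparation cannot be told apart there. Values without single libraries are given below where they end a call of a named gene or move a called difference by over 1.5 times.

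Eluates at the syncytial blastoderm differed from those at NC 9-10 in 1809 of 8618 genes (adjusted p below 0.05). Of these, 1172 were higher at the syncytial blastoderm (13.6% of genes tested) and 637 were lower (7.39%). Counts of called genes per list below stand beside these shares. The lists and their members were chosen with earlier results of these data known. Their counts and medians are therefore descriptions and not tests. The 4 libraries separated by stage, with no overlap, in 4107 genes (47.7%). The genes that rose made up 23.9% and 20.8% of the summed level of the syncytial eluates, against 3.36% and 2.80% of the NC 9-10 eluates. The genes that fell made up 1.85% and 2.32% of the syncytial eluates, against 7.15% and 10.5% of the NC 9-10 eluates. These are shares of bulk RNA, in which fewer cells of a type and less RNA per cell cannot be told apart. The median gene lay at 0.08 after rescaling, at −0.31 when libraries were scaled to their totals only, and at 0.19 on values as deposited. The split into 1172 higher and 637 lower genes became 969 and 1282 with total scaling, and 546 and 124 as deposited. Without the first or the second NC 9-10 eluate the counts were 1034 and 617 or 891 and 326. Without the 250 mM or the 50 mM syncytial eluate they were 1305 and 412 or 1129 and 664. These calls use the spread over all 21 poly(A) libraries. With the 7 eluates alone in the fit 559 were higher and 139 lower, and with only the 4 libraries compared 336 and 16. Only 4 of 33 short early genes, 5 of 15 gap, terminal and head genes, 2 of 9 pair-rule genes, 6 of 15 dorsal ectoderm and BMP genes and 1 of 12 neuroectoderm and midline genes were called in that smallest fit, so the counts per list below rest on the shared spread. No gene of the 1809 changed sign under any of these settings. In all of them the groups did not overlap, so leaving out 1 library or changing the libraries in the fit could not change a sign.

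Most of the largest rises were in genes at a few ppm or less in both NC 9-10 eluates. The gene geko (FBgn0020300, 3L, 18139402 to 18145418, plus strand, BDGP6.54 assembly, with at most 2 introns), named for an olfactory mutant, was at 1371 and 1613 ppm in syncytial eluates, against 6.49 and 0.0547 ppm in NC 9-10 eluates. Both syncytial libraries lay far above both NC 9-10 libraries, a log2 difference of 9.05 ± 0.93 (SE; adjusted p = 2.46e-05). Ppa (FBgn0020257, 2R, 22684955 to 22688987, minus strand, no intron), an F-box protein that partners the segmentation factor Paired, was at 1474 and 965 ppm, against 5.23 and 0.216 ppm at NC 9-10 (8.76 ± 0.70, adjusted p = 4.42e-06). D (Dichaete), a Sox transcription factor of segmentation and the nervous system, was at 1238 and 938 ppm, against 4.51 and 0.172 ppm (8.73 ± 0.66, adjusted p = 3.63e-06). All 3 genes were at 6.49 ppm or less at NC 9-10 and at 938 ppm or more in each syncytial library.

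Membrane and signalling proteins stood beside them. The gap junction gene Inx3 was at 1055 and 1059 ppm in syncytial eluates, against 5.46 and 0.472 ppm at NC 9-10 (8.42 ± 0.61, adjusted p = 3.22e-06). Ptr, a relative of the Hedgehog receptor Patched (FBgn0262867, 2R, 6181748 to 6196320, minus strand, 14573 bp with up to 9 introns), was at 301 and 490 ppm, against 0.236 and 0.0729 ppm (8.38 ± 0.64, adjusted p = 3.69e-06). Egfr, the receptor for epidermal growth factor ligands and 37558 bp long (FBgn0003731, 2R, 21522420 to 21559977, plus strand), was at 425 and 242 ppm, against 0.636 and 0.0354 ppm (7.95 ± 0.60, adjusted p = 3.63e-06). For each of these genes the libraries of the stages were far apart, and the syncytial libraries differed from each other by less than 2-fold. Dtg, a target of the BMP ligand Dpp, the scavenger receptor Sr-CII, the less known CG43085 and CG34214, the gap gene kni and halo, which steers lipid droplets along microtubules, completed the 12 largest rises, at 7.91 to 8.67. Among these, halo and CG34214 were not close to 0 in the first NC 9-10 library, at 106 and 54.2 ppm. CG34214 shares exons with ND-19 on the other strand, so its reads may be mixed.

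**Figure D1:**
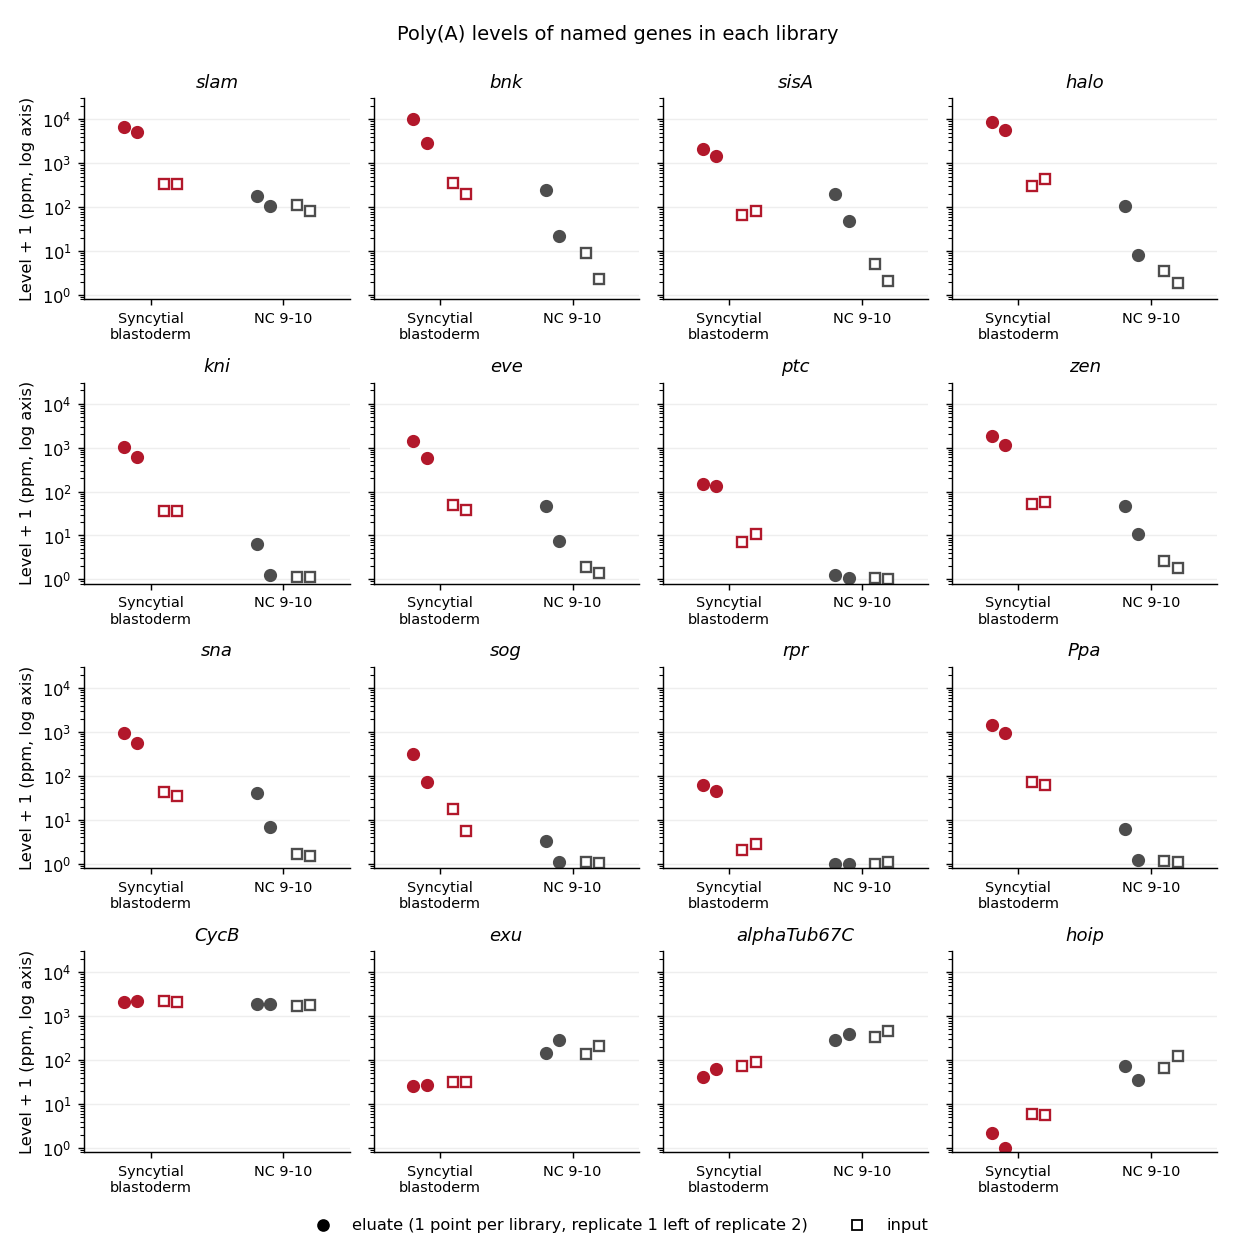
Levels (ppm per kilobase, plus 1, log axis) of 16 genes in each syncytial blastoderm library (left in each panel) and each NC 9-10 library (right), with eluates as filled circles and inputs as open squares. The genes from slam to Ppa lie higher at the syncytial stage, with slam at 6645 and 5140 ppm in syncytial eluates and 177 and 108 ppm in NC 9-10 eluates. CycB differs little, and exu, alphaTub67C and hoip lie lower.

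Gap, terminal and head genes are the first zygotic tier of anterior-posterior patterning and read the maternal gradients. Of 15 tested, 12 were higher and none lower, with a median difference of 5.81 (6.02 without the 1 gene listed at 0 in both NC 9-10 eluates), beside 0.08 for all genes. The gap gene kni (FBgn0001320, 3L, 20692330 to 20695378, minus strand) was at 1052 and 616 ppm in syncytial eluates, against 5.56 and 0.24 ppm in NC 9-10 eluates, 8.14 ± 0.62 (adjusted p = 3.69e-06). The gap gene Kr was at 421 and 339 ppm, against 1.94 and 0.655 ppm (7.42 ± 0.43, adjusted p = 1.57e-06). Both were higher in each syncytial library than in either NC 9-10 library by more than 50-fold.

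The terminal genes tll and hkb, which pattern the ends of the embryo, were at 899 and 569 ppm and at 333 and 257 ppm in syncytial eluates. At NC 9-10 they were at 26.9 and 0.844 ppm and at 4.72 and 0.046 ppm (6.64 ± 1.15 for tll, adjusted p = 0.00121, and 6.91 ± 0.81 for hkb, adjusted p = 6.81e-05). The NC 9-10 libraries differed by more than 30-fold in both genes, yet neither reached the syncytial range. The head gene ems and the hindgut gene byn rose as well, to 129 and 89.1 ppm and to 88.3 and 82.7 ppm, against levels below 0.2 ppm at NC 9-10. The 3 genes that did not pass were knrl, cad and cnc. For cad, a posterior factor with a maternal transcript, the levels were 947 and 343 ppm, against 408 and 221 ppm (0.92 ± 0.61, adjusted p = 0.346). For cnc, a head gene with a maternal form, they were 183 and 115 ppm, against 192 and 141 ppm (−0.18 ± 0.39, adjusted p = 0.805). These groups overlapped. The kni relative knrl was at 4.51 and 3.29 ppm and was listed at 0 in both NC 9-10 eluates (adjusted p = 0.0507, and 0.0198 with the preparation as a random block).

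All 9 pair-rule genes, which divide the embryo into segments, were higher (median 5.52). The homeobox gene eve was at 1434 and 593 ppm in syncytial eluates, against 46.8 and 6.62 ppm at NC 9-10 (5.60 ± 0.72, adjusted p = 0.000146). The homeobox gene ftz was at 688 and 166 ppm, against 20.4 and 0.366 ppm (5.97 ± 1.12, adjusted p = 0.00215). In both, the 250 mM library was the higher syncytial one and the first NC 9-10 library the higher of its stage, without overlap. The gene eve shares exons with an antisense RNA on the other strand. The later pair-rule genes prd, opa and slp2 reached 189 and 141, 94.8 and 58.3, and 64.7 and 32 ppm. At NC 9-10 they were below 4 ppm in the first library and below 0.1 ppm in the second. The repressor h was at 490 and 123 ppm, against 14.2 and 2.93 ppm (5.00 ± 0.79, adjusted p = 0.000651). For run, a Runt transcription factor, the difference of 4.53 ± 1.17 (adjusted p = 0.0152) rested on single libraries. It was 3.10 without the second NC 9-10 eluate (adjusted p = 0.159) and 3.11 without the 250 mM syncytial eluate (adjusted p = 0.127).

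Segment polarity genes keep segment borders and act after the pair-rule genes. Of 9 tested, 7 were higher, and the median was 3.21 (4.55 without 5 genes listed at 0 in both NC 9-10 eluates). The Hedgehog receptor ptc was at 148 and 134 ppm in syncytial eluates, against 0.282 and 0.105 ppm at NC 9-10 (6.90 ± 0.38, adjusted p = 1.47e-06), the smallest adjusted p of all genes. The ligand gene wg was at 28.5 and 17.1 ppm and listed at 0 in both NC 9-10 eluates (adjusted p = 4.14e-06). The ligand gene hh was at 10.9 and 6.73 ppm, against 0.328 ppm and 0 (3.06 ± 0.47, adjusted p = 0.000496). The receptor stood above both ligands at the syncytial stage. The transcription factor ci reached 33.7 and 119 ppm, with the 50 mM library above the 250 mM one. The homeobox gene en was at 0.652 and 1.11 ppm and the paired-type gene gsb at 0 and 0.624 ppm, both listed at 0 at NC 9-10 (adjusted p = 0.164 and 0.537). Hox genes, which give segments their identity, were low throughout. Of 7 tested, 3 were higher, Ubx (2.39 and 1.44 ppm, listed at 0 in both NC 9-10 eluates), abd-A (3.11 and 1.07 ppm, against 0.0739 ppm and 0) and pb (1.09 and 0.689 ppm, against 0.104 ppm and 0), none of them above 4 ppm. The call for pb was lost without the second NC 9-10 eluate (adjusted p = 0.0707), and none of the 3 passed on values as deposited. Scr did not pass (1.49 and 0.249 ppm, listed at 0 at NC 9-10; adjusted p = 0.0529), but did without the 50 mM library (adjusted p = 0.00062).

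Dorsal ectoderm and BMP pathway genes pattern the back of the embryo. Of 15 tested, 13 were higher and none lower, with a median of 4.35 (5.07 without 2 genes listed at 0 at NC 9-10). Among the ligands, scw was at 1594 and 1406 ppm in syncytial eluates, against 40.7 and 3.99 ppm at NC 9-10 (6.70 ± 1.23, adjusted p = 0.00184), and dpp was at 263 and 76.1 ppm, against 4.51 and 0.0341 ppm (5.90 ± 0.72, adjusted p = 9.37e-05). The protease gene tld, which frees BMP ligands from their inhibitor, was at 610.5 and 488 ppm, against 16.8 and 3.48 ppm (5.94 ± 0.79, adjusted p = 0.000175). Ligands and protease were all high at the syncytial stage, with scw above dpp in each of the 4 libraries. The homeobox gene zen (FBgn0004053, 3R, 6752864 to 6754194, minus strand), a target of this pathway, was at 1850 and 1175 ppm, against 46.1 and 9.9 ppm (6.03 ± 0.68, adjusted p = 5.27e-05). The T-box gene Doc1 was at 93.1 and 78.7 ppm, against 0.254 ppm and 0 (6.27 ± 0.48, adjusted p = 3.69e-06). The 2 members that did not pass, ush and peb, act later in the amnioserosa, and both were at 10.2 ppm or less in each library with overlapping groups.

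In the mesoderm and gastrulation list 5 of 10 genes tested were higher (median 1.45). The repressor sna was at 958 and 548 ppm in syncytial eluates, against 39.5 and 5.76 ppm at NC 9-10 (5.46 ± 0.70, adjusted p = 0.000146). The mesoderm activator twi was at 376 and 54.3 ppm, against 9.69 and 0.0609 ppm (5.42 ± 1.11, adjusted p = 0.00386), with reads that may be shared with genes that overlap it. The groups did not overlap in either gene, but the syncytial values of twi were almost 7-fold apart. The FGF receptor htl was at 11.6 and 12.5 ppm and listed at 0 in both NC 9-10 eluates (adjusted p = 3.69e-06). The cell shape genes fog and T48 and the transcription factor genes zfh1 and Mef2 did not pass. For fog the levels were 115 and 55.5 ppm, against 109.6 and 107 ppm (−0.43 ± 0.49, adjusted p = 0.609).

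Of 12 neuroectoderm and midline genes 8 were higher (median 2.93, and 4.80 without 4 genes listed at 0 at NC 9-10), and 5 on values as deposited. The BMP inhibitor sog was at 319 and 73.4 ppm in syncytial eluates, against 2.21 and 0.0868 ppm at NC 9-10 (6.37 ± 0.86, adjusted p = 0.000212). The protease rho, which activates Egfr ligands, was at 227 and 76.3 ppm, against 2.72 and 0.0962 ppm (6.04 ± 0.66, adjusted p = 4.01e-05). The proneural gene l(1)sc was the most abundant of the list, at 1621 and 793 ppm, against 118 and 15.5 ppm (4.68 ± 0.83, adjusted p = 0.00143). In all 3 the 250 mM library was the highest. For SoxN, a Sox factor of the nervous system, the difference of 3.79 fell to 2.48 without the 250 mM library. The homeobox gene ind and the Egfr ligand vn did not pass. They did without the 250 mM syncytial library for ind (adjusted p = 0.0251) and without the first NC 9-10 library for vn (adjusted p = 0.0385).

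Sex in flies is set by the dose of X-linked counting genes, which act on the early promoter of Sxl. All 7 genes of this list were higher (median 5.96). The counting gene sisA (X, 11321579 to 11322357, minus strand, no intron) was at 2073 and 1484 ppm in syncytial eluates, against 198 and 46.5 ppm at NC 9-10 (4.17 ± 0.77, adjusted p = 0.00189). It had the highest NC 9-10 levels of the list in the first library and, after Sxl, in the second. The counting gene sc was at 2815 and 1287 ppm, against 118 and 4.37 ppm (6.24 ± 1.14, adjusted p = 0.00175), and its difference was 4.01 without the second NC 9-10 library. The cytokine gene upd1 and the autosomal repressor dpn rose to 621 and 470 ppm and to 1135 and 787 ppm, against 20.3 and 2.54 ppm and against 24.3 and 7.26 ppm. Sxl itself, named after its values were seen, was at 723 and 382 ppm, against 117 and 155 ppm (1.96 ± 0.59, adjusted p = 0.0337). That call was lost without either NC 9-10 library (adjusted p = 0.143 and 0.0876) and without the 250 mM library (adjusted p = 0.183). The dosage compensation gene msl-2 was at 144 and 185 ppm, against 1.42 and 1.3 ppm (6.13 ± 0.60, adjusted p = 1.79e-05), with NC 9-10 libraries that were close to each other.

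Cellularisation genes build the membranes that close around the nuclei. All 4 tested were higher (median 5.88); Sry-alpha was listed at 0 in every one of these libraries, as were the proteasome gene Prosalpha1 and the signal recognition particle RNA, which every cell uses, so a listed 0 may not be an absence. The gene slam (FBgn0043854, 2L, 6372388 to 6377284, plus strand) was at 6645 and 5140 ppm in syncytial eluates, against 177 and 108 ppm at NC 9-10 (5.39 ± 0.38, adjusted p = 2.85e-06). The gene bnk was at 10236 and 2915 ppm, against 252 and 21.3 ppm (6.19 ± 1.02, adjusted p = 0.000833). In nullo, 2690 and 1375 ppm stood against 108 and 13.9 ppm (5.58 ± 0.92, adjusted p = 0.000856). Both bnk and nullo were higher in the first NC 9-10 library by more than 7-fold, whereas slam differed less between these libraries.

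Genes that slow the cell cycle gave a split result. Z600, an inhibitor of mitotic cyclins also called fruhstart, was at 2086 and 1607 ppm in syncytial eluates, against 24.9 and 7.32 ppm at NC 9-10 (6.96 ± 0.90, adjusted p = 0.00015), and shares exons with gdl. The gene trbl (FBgn0028978, 3L, 20396288 to 20401609, minus strand), a pseudokinase that leads to the breakdown of the phosphatase String, was at 1627 and 1617 ppm, against 47.3 and 42.6 ppm (5.15 ± 0.37, adjusted p = 3.22e-06). The phosphatase gene stg itself was at 772 and 532 ppm, against 670 and 564 ppm (0.06 ± 0.33, adjusted p = 0.945), with overlapping groups.

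Of 11 Bearded family and Enhancer of split genes, which dampen or carry out Notch signalling, 7 were higher (median 3.44), and 4 on values as deposited. Tom, a Bearded family inhibitor, was at 684 and 426 ppm in syncytial eluates, against 19.4 and 5.32 ppm at NC 9-10 (5.57 ± 0.52, adjusted p = 1.39e-05). The repressor gene E(spl)m7-HLH was at 64.2 and 36.7 ppm and listed at 0 in both NC 9-10 eluates (adjusted p = 2.74e-06). Other members depended on the NC 9-10 libraries. Brd did not pass at 260 and 88.9 ppm, against 76.8 and 7.59 ppm (2.57 ± 0.95, adjusted p = 0.0812), and passed without the first NC 9-10 library (4.16, adjusted p = 0.00701). BobA, whose near copies may share reads, was higher (4.43 ± 0.97, adjusted p = 0.00587) but not without the second (2.92, adjusted p = 0.0697). The difference of E(spl)m4-BFM, 4.93, was 2.88 without the second.

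The insulator genes of the early embryo are Elba1, Elba2 and Elba3, subunits of 1 complex, and the related factor insv. All 4 were higher (median 5.62), but their NC 9-10 levels differed. Elba3 was at 10021 and 7026 ppm in syncytial eluates, against 158 and 21.5 ppm at NC 9-10 (7.14 ± 1.05, adjusted p = 0.000391). Elba2 was at 2607 and 2185 ppm, against 171 and 109 ppm (4.11 ± 0.38, adjusted p = 1.33e-05). The gene insv was at 1378 and 926 ppm, against 195 and 161 ppm (2.66 ± 0.26, adjusted p = 2.12e-05). Total RNA separated them as well. Input levels at NC 9-10 were 2.35 and 0.723 ppm for Elba3, 165 and 188 ppm for Elba2 and 191 and 184 ppm for insv, so Elba2 and insv RNA was present in total RNA at the earlier stage and Elba3 RNA was near 0.

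The cell death activators, which lie close together on 3L and relieve the block on caspases, were higher in 3 of 4. The gene rpr (FBgn0011706, 3L, 18397535 to 18398435, minus strand, no intron) was at 60.3 and 43.9 ppm in syncytial eluates and listed at 0 in both NC 9-10 eluates (adjusted p = 3.58e-06). Its neighbour skl was at 52.3 and 40.6 ppm and also listed at 0 at NC 9-10 (adjusted p = 3.71e-06), and grim was at 3.71 and 3.03 ppm with 0 at NC 9-10 (adjusted p = 0.00122). Unlike these, hid was present at NC 9-10 and did not pass, at 15.4 and 15 ppm, against 4.26 and 1.51 ppm (2.16 ± 0.76, adjusted p = 0.0663, and 0.0303 with the preparation as a random block). Of the Toll family receptors of axis extension, 18w was higher at 73.8 and 44.2 ppm, against 0 and 0.0932 ppm (5.80 ± 0.45, adjusted p = 3.69e-06), while Toll-6 (1.31 ± 0.49, adjusted p = 0.0809) and Tollo (0.91 ± 0.66, adjusted p = 0.394) did not pass.

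Short early genes of less known function rose almost throughout. This list was chosen with earlier results of these data known, so its share is a description only. Of 33 tested, 31 were higher, with a median of 5.95 in eluates and 5.19 in inputs, beside 0.08 and 0.03 for all genes. The gene halo (FBgn0001174, 2L, 1517533 to 1518148, minus strand, 616 bp, no intron) was at 8780 and 5757 ppm in syncytial eluates, against 106 and 7.14 ppm at NC 9-10 (7.91 ± 0.91, adjusted p = 6.13e-05). CG14915 was at 3258 and 2552 ppm, against 21.5 and 6.69 ppm (7.78 ± 0.58, adjusted p = 3.63e-06), and shares exons with an antisense RNA. For CG43184, at 2541 and 2222 ppm, against 87.3 and 0.222 ppm (7.84 ± 1.53, adjusted p = 0.00278), the difference was 4.75 without the second NC 9-10 library. CG11966 and Bacc were the members that did not pass; Bacc was at 875 and 204 ppm, against 383 and 57.9 ppm, with overlapping groups.

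**Figure D2:**
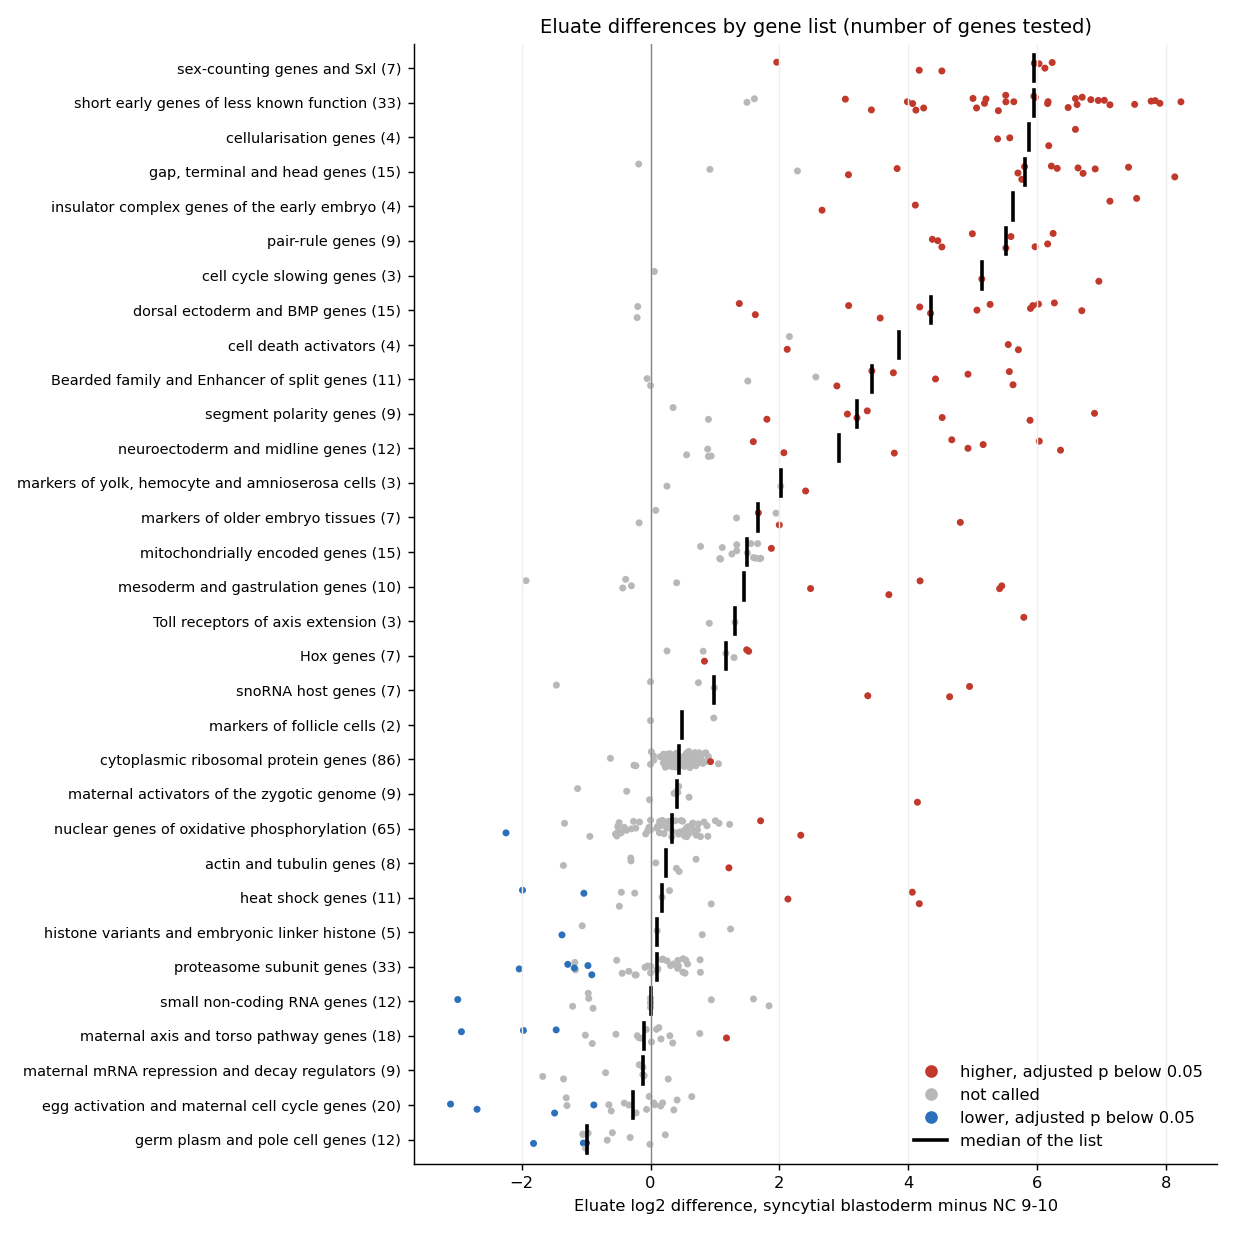
Difference in labelled RNA (log2, syncytial blastoderm minus NC 9-10) of each gene in the 32 gene lists, each point 1 gene, lists ordered by their median. The patterning and short early lists lie to the right with medians up to 5.96, beside 0.08 for all genes. The germ plasm list has the lowest median, −0.98. Lists were chosen with earlier results of these data known.

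The largest falls were in transcripts that total RNA also held at NC 9-10. Whether falls in eluates lie in newly made RNA or in unlabelled RNA carried into them was not tested. The lowest difference was that of hoip (FBgn0286786, 2L, 9699791 to 9700459, plus strand), a component of the splicing machinery, at 1.15 ppm and 0 in syncytial eluates, against 72.3 and 34.4 ppm at NC 9-10 (−5.12 ± 0.46, adjusted p = 1.06e-05). Its inputs were at 5.1 and 4.58 ppm, against 66.5 and 121 ppm at NC 9-10, a fall there too (−3.96, adjusted p = 0.00106). GstE6, a glutathione transferase, was at 5.59 ppm and 0, against 50.8 and 53 ppm (−4.36 ± 0.82, adjusted p = 0.00218). The sugar transporter gene sut1 was at 0.0579 and 3.62 ppm, against 36.2 and 37.4 ppm (−4.10 ± 0.54, adjusted p = 0.000165). In all 3 genes both syncytial libraries lay far below both NC 9-10 libraries. The gene sut1 shares exons with a gene on the other strand, as do 42.9% of the genes that fell and 36.8% of all genes.

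Among the 12 largest falls were also CG4842, CG6770, Mis12, CG9547, CG3394, DNApol-eta, CG31075 and CG15820, at −4.17 to −3.60. Mis12, of the kinetochore, was at 0 and 14.1 ppm, against 46.3 and 58.9 ppm. Its difference of −3.78 was −1.82 without the 250 mM library and −5.73 without the 50 mM one, and the call was lost without the second NC 9-10 library (−3.61, adjusted p = 0.0547). For CG6770, at 120 and 68.9 ppm, against 3142 and 514 ppm (−3.79 ± 1.06, adjusted p = 0.0231), the call was lost without the first NC 9-10 library (−2.48, adjusted p = 0.188) or the 50 mM one (adjusted p = 0.11), and sat at the threshold without the 250 mM one. For CG15820 the difference of −3.60 was −2.28 without the 250 mM library. DNApol-eta, of translesion replication, was at 6.98 and 4.7 ppm, against 56.4 and 122 ppm (−3.64 ± 0.60, adjusted p = 0.000834).

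Maternal regulators split into transcripts that fell and transcripts that did not pass. Of 18 maternal axis and torso pathway genes 3 were lower and 1 higher, with a median of −0.10 (0.01 as deposited, and −0.15 to 0.10 without 1 library). The gene exu (FBgn0000615, 2R, 20667427 to 20671083, minus strand), which localises bcd RNA in the oocyte, was at 25.3 and 25.8 ppm in syncytial eluates, against 146 and 280 ppm at NC 9-10 (−2.94 ± 0.33, adjusted p = 5.2e-05); it shares exons with galla-1. The ventral morphogen gene dl and the torso ligand gene trk were lower too. The call of dl was lost without the first NC 9-10 library (adjusted p = 0.127) or the 50 mM one (adjusted p = 0.113), and that of trk without either NC 9-10 library (adjusted p = 0.0798 and 0.0659) or the 250 mM one (adjusted p = 0.102). The torso pathway gene tsl was higher at 0.747 and 2.25 ppm, against 0 and 0.105 ppm (1.18 ± 0.30, adjusted p = 0.0138), and lost the call without the 50 mM library (0.73, adjusted p = 0.0929) or either NC 9-10 library (adjusted p = 0.0708 and 0.0547). The list had 1 lower gene without the first NC 9-10 library or as deposited, and 2 without the second or without the 50 mM library. The receptor gene Tl did not pass, at 505 and 413 ppm, against 349 and 477 ppm (0.16 ± 0.22, adjusted p = 0.665).

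Germ plasm and pole cell genes, which specify the germ line, were lower in 3 of 12, beside 7.39% of all genes, with a median of −0.98 and 1 gene above 0. The helicase gene vas was at 99.4 and 107 ppm in syncytial eluates, against 295 and 454 ppm at NC 9-10 (−1.82 ± 0.30, adjusted p = 0.000962), and shares exons with solo. The chaperone gene Hsp83 was at 1731 and 1694 ppm, against 2970 and 4196 ppm (−1.04 ± 0.24, adjusted p = 0.00819), and tud, a scaffold of the germ granules, was at 113 and 75.8 ppm, against 152 and 226 ppm (−0.99 ± 0.25, adjusted p = 0.0146). Without the second NC 9-10 library only 1 of the 12 was lower, since Hsp83 (−0.79, adjusted p = 0.0812) and tud (−0.71, adjusted p = 0.145) were lost; tud was also lost without the 50 mM library (−0.71, adjusted p = 0.12). With total scaling 7 were lower, among them nos and osk, and as deposited none was. With the preparation as a random block 5 were lower, again with nos and osk (adjusted p = 0.0467 and 0.0325). The cyclin gene CycB did not differ beyond its spread, at 2152 and 2247 ppm, against 1898 and 1853 ppm (0.23 ± 0.19, adjusted p = 0.462).

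Among egg activation and maternal cell cycle genes 4 of 20 were lower and none higher, beside 7.39% and 13.6% of all genes. The median was −0.28, and −0.43 to −0.02 without 1 library. The female-specific activator of the anaphase complex cort was at 5.82 and 6.82 ppm in syncytial eluates, against 47.2 and 81.2 ppm at NC 9-10 (−3.11 ± 0.37, adjusted p = 8.51e-05), and shares exons with cup and CG34310. The maternal tubulin gene alphaTub67C (FBgn0087040, 3L, 9681268 to 9683370, plus strand) was at 41 and 62.3 ppm, against 281 and 394 ppm (−2.69 ± 0.32, adjusted p = 7.39e-05). The checkpoint kinase gene mei-41 was at 10.9 and 8.08 ppm, against 17 and 46.5 ppm (−1.49 ± 0.40, adjusted p = 0.0185). Its difference was −0.79 without the second NC 9-10 library (adjusted p = 0.171), and the call was also lost without the 50 mM library (adjusted p = 0.0956). Cdk2 lost its call without the second NC 9-10 library (−0.59, adjusted p = 0.263) or either syncytial library (adjusted p = 0.126 and 0.0762). Of the 20 genes 2 were lower without the second NC 9-10 library or as deposited, and 9 with total scaling. CycA, CycB3, CycE, twe and polo did not pass, at −0.06 to 0.64.

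Of 9 maternal activators of the zygotic genome tested, only grh was higher, beside 13.6% of all genes. The levels of grh were 26 and 13.3 ppm in syncytial eluates, against 0.232 ppm and 0 at NC 9-10 (4.15 ± 0.56, adjusted p = 0.000216). The chromatin factor Clamp was at 260 and 279 ppm, against 177 and 228 ppm (0.42 ± 0.20, adjusted p = 0.167), and neither it nor Stat92E and lola passed. None of 9 regulators of maternal RNA repression and decay was called (median −0.12, and −0.57 to 0.15 without 1 library; adjusted p of 0.49 or more for the named genes). The translational repressor gene smg was at 1952 and 1133 ppm, against 1641 and 1721 ppm (−0.18 ± 0.35, adjusted p = 0.784), and me31B at 3701 and 4044 ppm, against 3560 and 4957 ppm.

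Calls in the housekeeping groups stand beside 13.6% of all genes tested higher and 7.39% lower. Of 86 cytoplasmic ribosomal protein genes 82 lay above 0, with a median of 0.45, yet 1 was called, RpLP0-like (0.93 ± 0.29, adjusted p = 0.04), a relative of the stalk protein, and that call was lost without any 1 of the 4 libraries (adjusted p = 0.086 to 0.146). The median followed single libraries. It was 0.02 without the second NC 9-10 library, 0.05 without the 50 mM one, 0.98 without the first NC 9-10 library and 0.89 without the 250 mM one, and −0.02 with total scaling. Of 33 proteasome subunit genes 5 were lower and none higher, with a median of 0.10 (−0.37 with total scaling, and −0.12 to 0.30 without 1 library). The 5 were Rpn11, Rpn1, Rpt5, Rpn10 and Rpn2, all of the regulatory particle, which recognises and unfolds substrates. The other 14 of its 19 genes and all 14 core particle genes did not pass, and whether these parts differ was not tested. The deubiquitinase gene Rpn11 was at 51.3 and 75.7 ppm in syncytial eluates, against 225 and 299 ppm at NC 9-10 (−2.04 ± 0.28, adjusted p = 0.000211). Its inputs fell as well, to 65.9 and 81.5 ppm, against 274 and 393 ppm (−2.15, adjusted p = 0.00128). Without the second NC 9-10 library or the 250 mM syncytial library 2 of the 33 were lower, and the calls of Rpt5, Rpn10 and Rpn2 were lost (adjusted p = 0.0597 to 0.21), that of Rpn10 also without the first NC 9-10 library (adjusted p = 0.147). With total scaling 11 were lower, as deposited 1 and with the random block 7. The core particle genes Prosbeta1 (0.77 ± 0.44, adjusted p = 0.267) and Prosalpha5 (0.54 ± 0.48, adjusted p = 0.503) did not pass.

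Of 65 nuclear genes of oxidative phosphorylation 2 were higher and 1 lower (median 0.33, −0.09 with total scaling). That median was 0 without the second NC 9-10 library or the 50 mM one, 0.65 without the first NC 9-10 library and 0.73 without the 250 mM one. UQCR-6.4, a small subunit of complex III, was at 4.73 and 9.14 ppm, against 30.5 and 40.5 ppm (−2.25 ± 0.40, adjusted p = 0.00138). The higher ones, ND-51L1 and ATPsynbetaL, were at 8.88 ppm or less and listed at 0 in both NC 9-10 eluates; the difference of ND-51L1 was 2.33, and 1.36 without the 50 mM library. Without the first NC 9-10 library 5 were higher, and without the 50 mM library 3 were lower. All 15 mitochondrially encoded genes lay above 0 (median 1.50, and 0.91 without the second NC 9-10 library). Their summed level was 333092 and 228412 ppm in syncytial eluates, against 159678 and 71750 ppm in NC 9-10 eluates. These sums are of rescaled levels and are not shares of a library. Only mt:Cyt-b, of complex III, was called, at 26464 and 14114 ppm, against 8134 and 3404 ppm (1.88 ± 0.60, adjusted p = 0.0451). It was lost without the second NC 9-10 library (1.25, adjusted p = 0.303) or the 250 mM library (1.42, adjusted p = 0.219), and with the random block (adjusted p = 0.0827), and 3 of the 15 passed without the first NC 9-10 library.

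Of 7 host genes of small nucleolar RNAs 3 were higher in labelled RNA (median of the list 0.99, and 0.40 to 2.16 without 1 library). Uhg5 (FBgn0083123, 2R, 14621601 to 14624498, plus strand, up to 11 introns) was at 30.9 and 57.8 ppm in syncytial eluates, against 0.95 ppm and 0 at NC 9-10 (4.95 ± 0.47, adjusted p = 1.52e-05). Its inputs were at 2.73 and 3.27 ppm, against 1.11 and 2.13 ppm (0.63, adjusted p = 0.599). Uhg1 rose in the same way (4.65 ± 0.52, adjusted p = 4.7e-05), and Uhg2 too (3.37 ± 1.01, adjusted p = 0.0327) but not without the second NC 9-10 library (1.93, adjusted p = 0.291) or either syncytial library (adjusted p = 0.107 and 0.0889), nor with the random block (adjusted p = 0.052). Of 12 small non-coding RNA genes none was higher, and RNaseP:RNA was lower (adjusted p = 0.0353), listed at 0 in both syncytial eluates, a call lost without any 1 library (adjusted p = 0.0679 to 0.175) and with the random block (adjusted p = 0.0707). Without the 250 mM library 2 of the 12 were higher.

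In the heat shock list 3 of 11 genes were higher and 2 lower, beside 13.6% and 7.39% of all genes. The median was 0.18, −0.31 with total scaling, and 0 to 0.51 without 1 library. The translation inhibitor gene Thor (FBgn0261560, 2L, 3478434 to 3479612, plus strand) was at 258 and 811 ppm in syncytial eluates, against 27.8 and 25.1 ppm at NC 9-10 (4.07 ± 0.52, adjusted p = 0.000127). The small chaperone gene Hsp23 was at 56.8 and 52.4 ppm, against 5.72 and 0.408 ppm (4.17 ± 0.74, adjusted p = 0.00139), and Hsp68 at 8.22 and 9.23 ppm, against 1.05 and 1.39 ppm (2.13 ± 0.27, adjusted p = 0.000113). The lower ones were maternal Hsp26 (351 and 367 ppm, against 1544 and 1320 ppm; −1.99 ± 0.30, adjusted p = 0.000434) and Hsp60A, which lost its call without the 250 mM library (−0.73, adjusted p = 0.0532). Among 8 actin and tubulin genes 1 was higher, alphaTub84D (1.22 ± 0.35, adjusted p = 0.0262), and it was lost without either NC 9-10 library (adjusted p = 0.0961 and 0.0948) or the 50 mM library (0.80, adjusted p = 0.203). The list's median was 0.24, −0.13 to 0.55 without 1 library, and −0.06 with total scaling, where 1 gene was lower and none higher. Of 5 histone variants cid, the centromeric H3, was lower (−1.38 ± 0.33, adjusted p = 0.0107), a call lost without the first NC 9-10 library (adjusted p = 0.0631) or the 250 mM library (adjusted p = 0.0781); without the first NC 9-10 library 2 of the 5 were higher.

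Markers of other cells and stages were measured beside these groups. Of 11 follicle cell genes 10 were listed at 0 in all 4 eluates, and none was called. Of 8 yolk, hemocyte and amnioserosa genes 3 were tested and 1 was higher, gcm, at 6.38 and 3.08 ppm, against 0 and 0.0664 ppm. All 3 lay above 0, with a median of 2.02, which is the difference of srp. The gene srp did not pass, and its difference was 0.65 without the second NC 9-10 library. The summed level of the tested genes was 38.8 and 12.8 ppm in syncytial eluates, against 16.9 and 2.74 ppm at NC 9-10. Col4a1, vkg and Lsp2 were not tested and were listed at 0 in both syncytial eluates. Of 14 older tissue genes 7 were tested and 3 were higher, Nrt (3289 and 841 ppm, against 84.9 and 39.9 ppm), trh and nSyb, the last 2 at 8.05 ppm or less, and both lost without the second NC 9-10 library (adjusted p = 0.0718 and 0.0555), nSyb also without the 250 mM one (adjusted p = 0.0816). Without the second NC 9-10 library, or as deposited, 1 of the 14 was higher. Their differences without the 250 mM library were 1.21 for trh and 1.09 for nSyb. The summed level of this list was 3944 and 941 ppm, against 625 and 139 ppm, nearly all of it from Nrt, a cell adhesion gene that is also transcribed in the blastoderm, and fax. The muscle genes Mhc, Mlc1 and Tm2 and the synaptic gene Syt1 were listed at 0 in both syncytial eluates. In these eluates para was at 0.162 and 0.033 ppm and repo at 0.0467 ppm and 0. The list member elav did not pass (1.95, adjusted p = 0.0679, and 0.0341 with the preparation as a random block). The part of other cells in the rises of the patterning genes was not tested.

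The same contrast in total RNA shows how much of each change was seen without the pull-down. In inputs 155 of 8618 genes were higher at the syncytial blastoderm (1.80%) and 507 were lower (5.88%). The split was 344 and 432 as deposited, 239 and 440 with a pseudocount of 0.1, 90 and 609 with one of 5, and 107 and 19 with only the 4 inputs in the fit. It was 84 and 292 or 38 and 76 without the first or the second NC 9-10 input, and 80 and 168 or 62 and 188 without the 250 mM or the 50 mM syncytial input. All 155 were among the 1172 genes that rose in labelled RNA, and 368 of the 507 were among the 637 that fell, 72.6% of the input list and 57.8% of the eluate list. The genes that rose in eluates had a median difference of 2.22 in eluates (2.30 without genes listed at 0 in both NC 9-10 eluates), 0.36 in inputs and 0.15 in flow-throughs. Those that fell had medians of −1.59, −1.41 and −1.41. These genes were chosen in eluates, and the added 1 shrinks differences most in inputs, where many of them were low. With a pseudocount of 0.1 the medians of the rising genes were 4.73 in eluates and 0.85 in inputs, and with one of 5 they were 1.10 and 0.13.

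**Figure D3:**
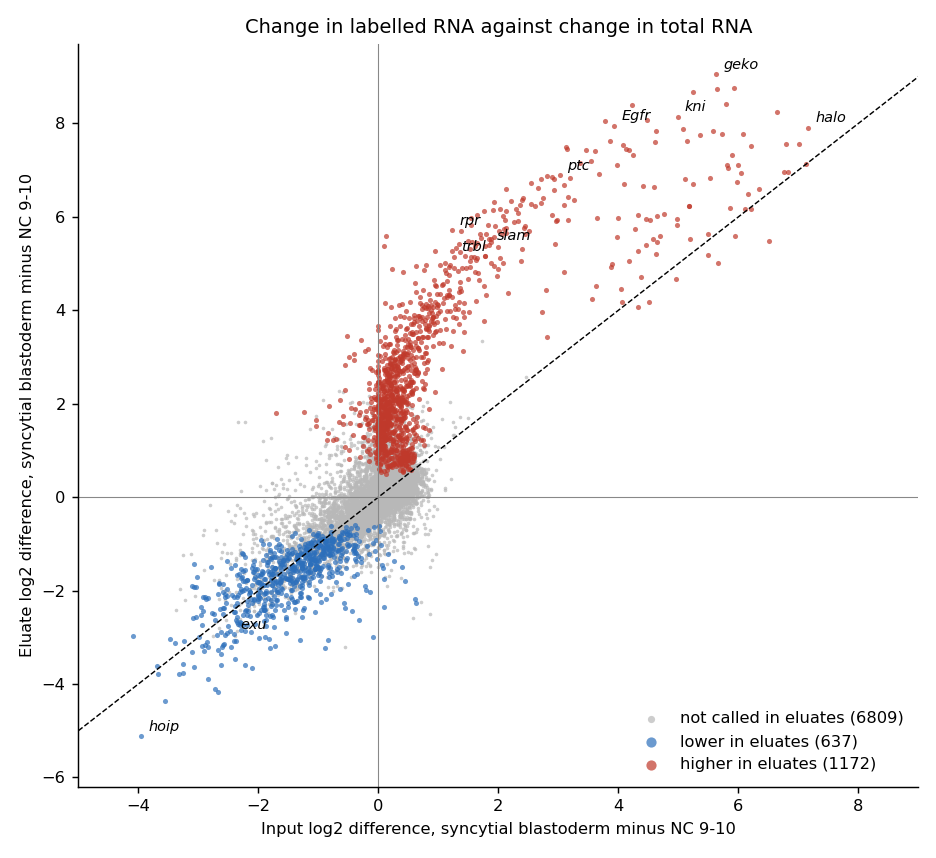
Difference in labelled RNA (vertical, eluate, log2 syncytial blastoderm minus NC 9-10) against the difference in total RNA (horizontal, input) of the 8618 genes tested, coloured by the eluate call, with equality as a dashed line. Genes that rose lie mostly above the line, with medians of 2.22 in eluates and 0.36 in inputs, and genes that fell lie along it, with medians of −1.59 and −1.41.

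Whether the eluate changed by more than the input of the same stage was tested as an interaction. On the log2 (ppm + 1) scale the ratio of eluate to input was higher at the syncytial blastoderm in 498 genes (5.78%) and lower in 2 (0.0232%). Of the 498 genes, 481 had also risen in eluates. At an unadjusted p below 0.05 the counts were 1029 and 49. The 2 lower ones, named after their values were seen, were the non-coding CR44267, at 0 in both syncytial eluates, against 2.25 and 6.16 ppm at NC 9-10 (adjusted p = 0.0125), and vir-1 (1.81 and 0.833 ppm, against 5.67 and 5.41 ppm; adjusted p = 0.0495). Neither passed on values as deposited. The 500 genes became 789 with the preparation as a random block and 705 with it as a fixed one (687 higher and 18 lower). They became 331 with a pseudocount of 0.1, and 11 as deposited, where 35 of the 498 lay below 0. Leaving out 1 library gave 236 to 707.

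Named genes show the contrast between the fractions. In slam the eluate difference was 5.39 and the input difference 1.85, since inputs were at 334 and 345 ppm at the syncytial stage, against 111 and 79.1 ppm at NC 9-10 (interaction 3.54, adjusted p = 0.00313). In trbl the eluate difference was 5.15 and the input difference 1.25 (130 and 143 ppm, against 50.2 and 63.5 ppm; interaction 3.89, adjusted p = 0.00222). Elba2 (interaction 3.12, adjusted p = 0.00564) and insv (2.25, adjusted p = 0.00477) were of the same kind, with a transcript that was already in total RNA at NC 9-10. In other genes the input was close to 0 at NC 9-10 and the difference in inputs was near that in eluates. For halo the differences were 7.91 and 7.16 (interaction adjusted p = 1), for Elba3 7.14 and 7.12, for nullo 5.58 and 5.94 and for l(1)sc 4.68 and 4.96. Where inputs are near the added 1, the interaction can pass without a change of the ratio. In Dtg the stage means were 765-fold apart in eluates and 760-fold in inputs, yet the interaction was 3.42 (adjusted p = 0.0244), and it did not pass with a pseudocount of 0.1 (adjusted p = 0.767). Of the 498 genes 278 passed with that pseudocount. Those with inputs below 10 ppm that did so included ptc (interaction 3.87, adjusted p = 0.00226, and 0.024 with a pseudocount of 0.1), opa (4.13, adjusted p = 0.00222 and 0.0143) and byn (4.39, adjusted p = 0.00222 and 0.024).

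Genes that rose can be arranged by their labelled level at NC 9-10, as a description only, since that level entered the contrast. Of the 1172 genes, 468 were listed at 0 in both NC 9-10 eluates and had a median mean level of 4.02 ppm at the syncytial stage. Another 282 lay above 0 and below 1 ppm at NC 9-10, with a median syncytial level of 8.53 ppm. A further 163 were between 1 and 20 ppm, with a median of 43.6 ppm, and 259 were at 20 ppm or more, with a median of 158 ppm and a median difference of 1.22. Annotated non-coding RNA genes numbered 86 of the first class and 2 of the last. In all, 802 of the 1172 had a mean level of at least 5 ppm at the syncytial stage. The 370 below it, many of them zero at NC 9-10, rest on few reads, and single reads were worth most in the 50 mM library.

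The structure of the genes that rose was set beside that of all genes, with no test of the difference. Genes without an intron made up 20.4% of the rising genes and 12.7% of all genes tested. By class, 21.8% of genes without an intron rose, 14.7% of genes with 1 intron, and 11.2% to 12.5% of genes with more. The median span of rising genes was 2494.5 bp, close to the 2530 bp of all genes. The share that rose was 15.7% below 1 kb, 11.7% from 2 to 5 kb, 18.7% from 20 to 50 kb and 12.6% above that. Falls were 9.10% from 2 to 5 kb, 2.70% from 20 to 50 kb and 0 of 199 genes at 50 kb or more. Genes of the X chromosome made up 11.6% of the rising genes and 17.3% of all genes. By arm, 9.13% of X-linked genes rose, against 8.43% of the 83 genes on chromosome 4 and 13.6% to 16.0% on the 4 large autosomal arms. Annotated non-coding RNA genes were 10.7% of the rising and 6.32% of all genes. These shares are descriptions of gene groups that also differ in their level at NC 9-10.

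**Figure D4:**
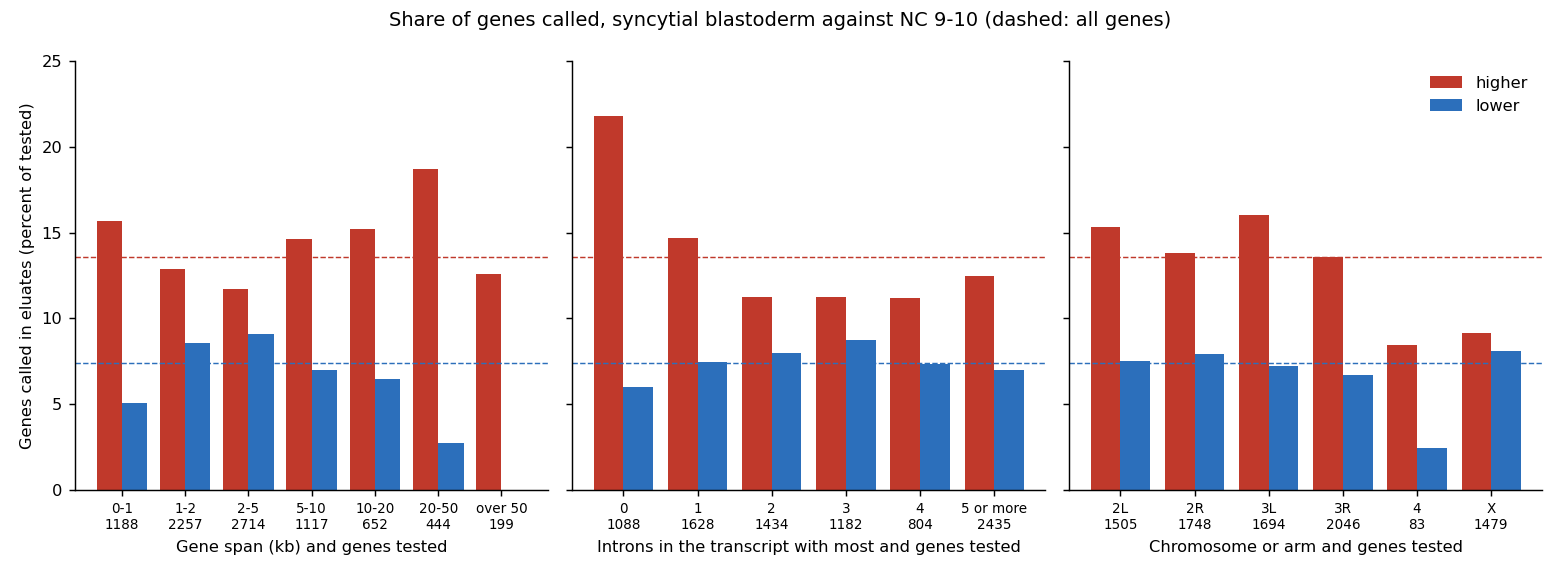
Percent of genes tested that were higher or lower in syncytial blastoderm eluates than in NC 9-10 eluates, by gene span, by number of introns and by chromosome arm, with the shares over all genes (13.6% and 7.39%) as dashed lines. The share that rose was 21.8% of genes without an intron, 9.13% of genes of the X chromosome and 8.43% of those of chromosome 4; differences between these shares were not tested.

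The other eluates of the poly(A) set were not in the groups compared, but they entered the scaling, the filter and the fit behind the calls. They show where the called genes stood before and after. In the NC 7-9 eluate (1 library, 250 mM) the genes that rose had a median of 0 ppm, and in cellular blastoderm eluates (250 and 50 mM) of 42.0 and 41.4 ppm. In between, their medians were 0.147 ppm and 0 at NC 9-10 and 12.5 and 12.1 ppm at the syncytial blastoderm. Both cellular blastoderm eluates lay above the NC 7-9 eluate in 1149 of the 1172 genes (98.0%), against 4504 of 8618 genes (52.3%) in all. The genes that fell had medians of 56.7 ppm at NC 7-9, 49.5 and 59.4 ppm at NC 9-10, 16.0 and 18.5 ppm at the syncytial blastoderm and 18.9 and 16.4 ppm at the cellular blastoderm. Both cellular eluates lay below the NC 7-9 eluate in 510 of the 637 (80.1%), against 2937 of 8618 (34.1%). The median of the rising genes was higher still at the cellular blastoderm, whereas that of the falling genes was alike at the syncytial and cellular stages.

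**Figure D5:**
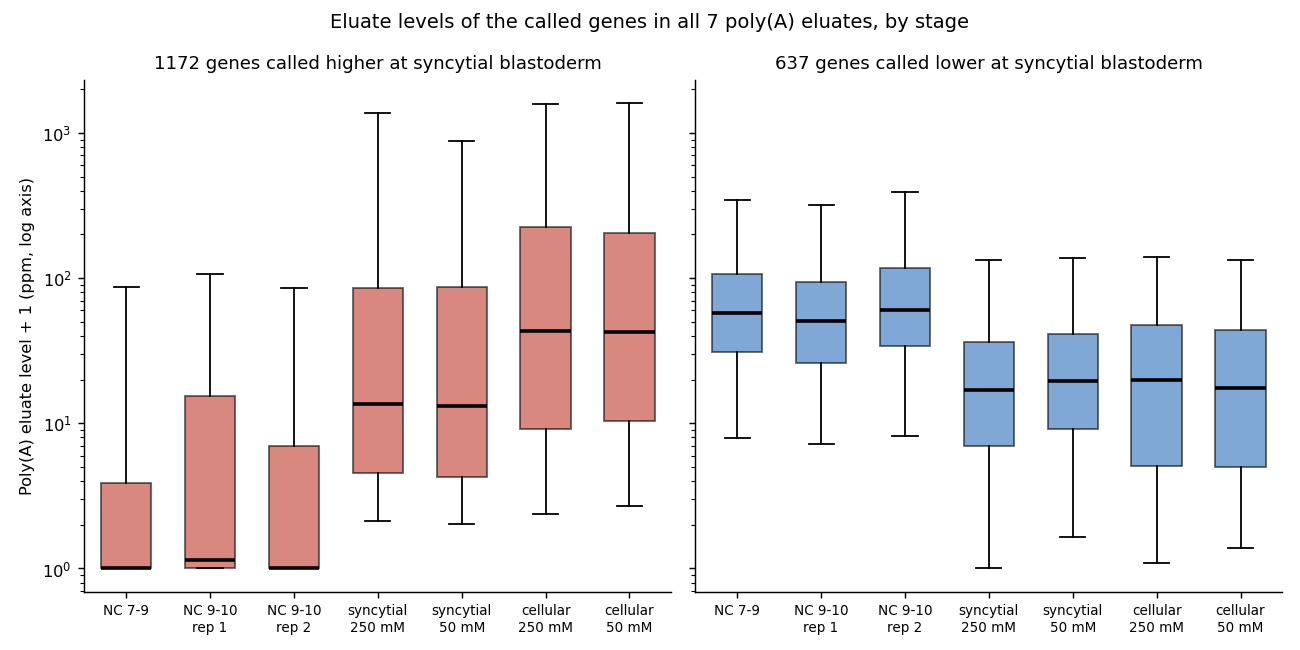
Levels (ppm per kilobase, plus 1, log axis) of the 1172 genes that rose and the 637 that fell in the 7 poly(A) eluates, from NC 7-9 to the cellular blastoderm, as boxes from the lower to the upper quartile with whiskers from the 5th to the 95th percentile. The median of the genes that rose is 0 at NC 7-9 and 42.0 and 41.4 ppm at the cellular blastoderm, and that of the genes that fell is 56.7 ppm at NC 7-9 and 18.9 and 16.4 ppm at the cellular blastoderm.

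Ribosomal RNA-depleted eluates of the same stages, 1 against 1 and without a replicate check, do not select for a poly(A) tail. They carry the same preparation names as the 250 mM syncytial and the first NC 9-10 poly(A) eluates, and whether they come from the same embryos is not stated. Of 7897 genes in both sets, 1675 (21.2%) were higher by at least 1 and 1865 (23.6%) lower by at least 1 on the log2 scale. Of the genes that rose in poly(A) eluates, 711 of 1012 (70.3%) were higher by at least 1 and 48 lower. Of those that fell, 378 of 635 (59.5%) were lower by at least 1 and 20 higher. The gene slam was at 5387 ppm, against 132 ppm, trbl at 1859 ppm, against 51.5 ppm, and exu at 69.5 ppm, against 287 ppm. Thor, which rose in poly(A) eluates, was listed at 0 at the syncytial blastoderm in this set, against 3.37 ppm at NC 9-10.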

How the data were processed

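Per the labels' protocols, a SMARTer Stranded kit served for poly(A) and rRNA-depleted libraries alike. The submitters' processing notes name STAR, HTSeq and dm6, with no version. How reads were filtered, assigned to strands and scaled is not given in the sources used here. The authors deposited RPKM values for 16407 genes in 2 tables. As the values show, 1 had been added to each, with a factor per library that is not known. Here 1 was taken off and each library was scaled to 1000000. A second factor per library, the median ratio to the gene-wise geometric mean, was taken over genes above 0 in all libraries. Genes at 1 ppm or more in at least 2 libraries were tested, 8618 in the poly(A) set and 8034 in the rRNA-depleted set. All 21 poly(A) libraries entered 1 limma fit of log2(ppm + 1) with a mean per stage and fraction and empirical Bayes with a mean trend, so the spread of every gene was estimated over all groups together. Adjusted p-values are Benjamini-Hochberg over all genes tested, two-sided, with a threshold of 0.05 (limma 3.58.1, R 4.3.3, tables with Python 3.11.15). The procedure was run on simulated data with known changes. These had independent noise per library and changes only in genes above a low mean level. They could therefore not check the effect of shared preparations or calls of low genes that change. Alternatives changed the scaling, pseudocount, filter, libraries in the fit, trend and block, and left out each library in turn.

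Titles pair eluate, flow-through and input of 1 preparation. Across genes, departures from the mean of a stage correlated at 0.594 and 0.650 between eluate and input and at 0.513 and 0.676 between eluate and flow-through (syncytial blastoderm, then NC 9-10). The eluate contrast itself has no pairs. Replicate eluates correlated at 0.919 at the syncytial blastoderm and 0.95 at NC 9-10 (Pearson r of levels), and no gene had the same value above 0 in both. The standard deviation of their log2 difference was 1.07 and 0.91. Coordinates, spans and introns come from the BDGP6.54 annotation (dm6 coordinates, release 115), in which 16330 symbols (99.53%) were found. Where genes overlap, reads of both may be mixed. Named genes are the 12 with the largest and the 12 with the smallest difference among called genes at 5 ppm or more whose groups do not overlap. In lists of over 6 genes, up to 6 called and 6 uncalled members are named. A gene that this rule names is not reported here. Members and lists were chosen with earlier results of these data known. Aborted transcripts and retained introns were not analysed here, since they cannot be read from 1 value per gene.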

Additional observations from a re-analysis of the deposited data

Results flagged for a closer look

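On the log2 (ppm + 1) scale the difference between stages was itself different between labelled and total RNA in 500 genes (limma interaction, adjusted p below 0.05). On that scale the eluate difference lay above the input difference in 498 and below it in 2 (CR44267 and vir-1). Where inputs are near the added 1, this can pass without a change of the ratio. With a pseudocount of 0.1, 278 of the 498 passed, and as deposited 35 of them lay below 0. Eluates and inputs came from the same preparations, and part of the eluate values is shared with the eluate contrast. The count depended on the settings given in the next part.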

How the results depend on the processing

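The 1809 genes called in eluates became 670 on values as deposited (546 higher, 124 lower), 698 with the eluates alone in the fit (559 and 139) and 352 with only the 4 libraries in it (336 and 16). With total scaling 1282 were lower. Leaving out 1 eluate gave 1217 to 1793 genes in all, 891 to 1305 higher and 326 to 664 lower. With the preparation as a random replicate block the counts were 1101 and 648. No gene of the 1809 changed sign under any alternative. Their groups did not overlap, so leaving out a library or changing the pseudocount could not change a sign. The 662 genes called in inputs became 126 with only the 4 inputs in the fit and 114 to 376 without 1 input; the higher ones among them, 155, became 344 as deposited, 239 with a pseudocount of 0.1, 90 with one of 5 and 38 to 84 without 1 input. The 500 genes of the ratio became 11 as deposited, 331 with a pseudocount of 0.1, 789 with the random and 705 with the fixed replicate block, and 236 to 707 without 1 library. The cause of these shifts was not tested. Other alternatives kept each of these 3 totals within 1.5 times. Medians of the maternal and housekeeping lists moved by over 1.5 times without single eluates. Of 186 named genes, 34 lost their call as deposited and 95 with only the 4 libraries. The replicate block changed the call of 8. Of the 128 named genes called, 16 moved by over 1.5 times without 1 eluate. Their groups did not overlap, so none could change sign. Low genes rest on few reads in the 50 mM library (4.23 M, in units of 1000000 reads) and the first NC 9-10 library (6.19 M).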
